A study of Mus musculus with 18 samples.

Results

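The 10 genes described here are used to recognise macrophages in fat, together with a pair of anti-apoptotic Bcl2a1 genes: Emr1, Cd68, Csf1r, Itgax, Lyz2, Mrc1, Trem2, Cd14, Bcl2a1b and Bcl2a1d. They were found by symbol in all 18 files and are 10 of the 45151 symbols present in both kinds of file. Bcl2a1b and Bcl2a1d were chosen because their levels were high in epididymal fat in these same libraries, so their epididymal differences are given below as values without a test. The RNA-seq libraries came from male wild-type mice on regular chow, aged 16 weeks (strain given as C57BL/6 in the labels and as C57BL/6J in the protocol), with 6 libraries each of inguinal white fat (iWAT), epididymal white fat (eWAT) and brown fat (BAT). For iWAT and eWAT the fat was digested with collagenase I and the mature adipocytes that floated up were taken. BAT was frozen and extracted as tissue, although its cell type label reads BAT adipocytes. The labels name no transgene and no agent in any group. Libraries are named by depot and by the number in their title. Each title holds a number, and some numbers recur between depots (4 in iWAT and BAT, 4 in eWAT and BAT, 5 in eWAT and iWAT). No label says what a shared number stands for, and the main fits do not pair libraries by it. No label says that libraries are from separate mice either, so p-values measure the spread between these samples.

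Macrophages are phagocytes of the innate immune system that live in adipose tissue beside the adipocytes, endothelial cells and precursors. They depend on signals through the Csf1 receptor, engulf dead cells and lipid, and sense bacterial products through receptors such as Cd14. Bcl2a1 (A1) proteins belong to the pro-survival branch of the Bcl2 family and are known mainly from blood cells. A macrophage that floats with, or sticks to, an adipocyte contributes its RNA to an adipocyte library, and in bulk samples a change in the number of such cells and a change in RNA per cell cannot be told apart.

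The total of reads behind the RPKM values (reads scaled to row length and to the library's total) was 22929576 to 34512470 per library, and no pair of libraries had identical counts. The iWAT and BAT files count genes with merged exons, whereas the eWAT files count single transcripts, and for each symbol the most-read eWAT transcript was used. The merged row of Emr1, for example, was 5279 bp long and its eWAT row 3245 bp, so a comparison with eWAT carries this difference in counting in addition to the depot. A comparison with BAT carries the difference between whole tissue and floating cells. Adipoq, the adipocyte hormone, had 867.5 to 2351 RPKM in eWAT, 1485 to 2147 in iWAT and 258 to 394 in BAT. Ucp1, the uncoupling protein of brown adipocytes, had 969 to 1509 RPKM in BAT and at most 5.76 in iWAT and 0.551 in eWAT. The macrophage genes were measured everywhere, with at least 2 reads on each of the 10 in every library.

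The library eWAT 15 stood apart for these genes. It held the highest level of all 10 genes among the eWAT libraries, and eWAT 13 held the second highest of all 10. The level in eWAT 15 was between 5.35 times (Mrc1) and 24.0 times (Trem2) the median of the other 5 eWAT libraries. Adipoq in eWAT 15 was 0.447 times that median. Each eWAT difference is therefore given with and without this library. In iWAT, library 7 was the highest for 6 of the 10 genes and library 15 the lowest for 7.

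**Figure D1:**
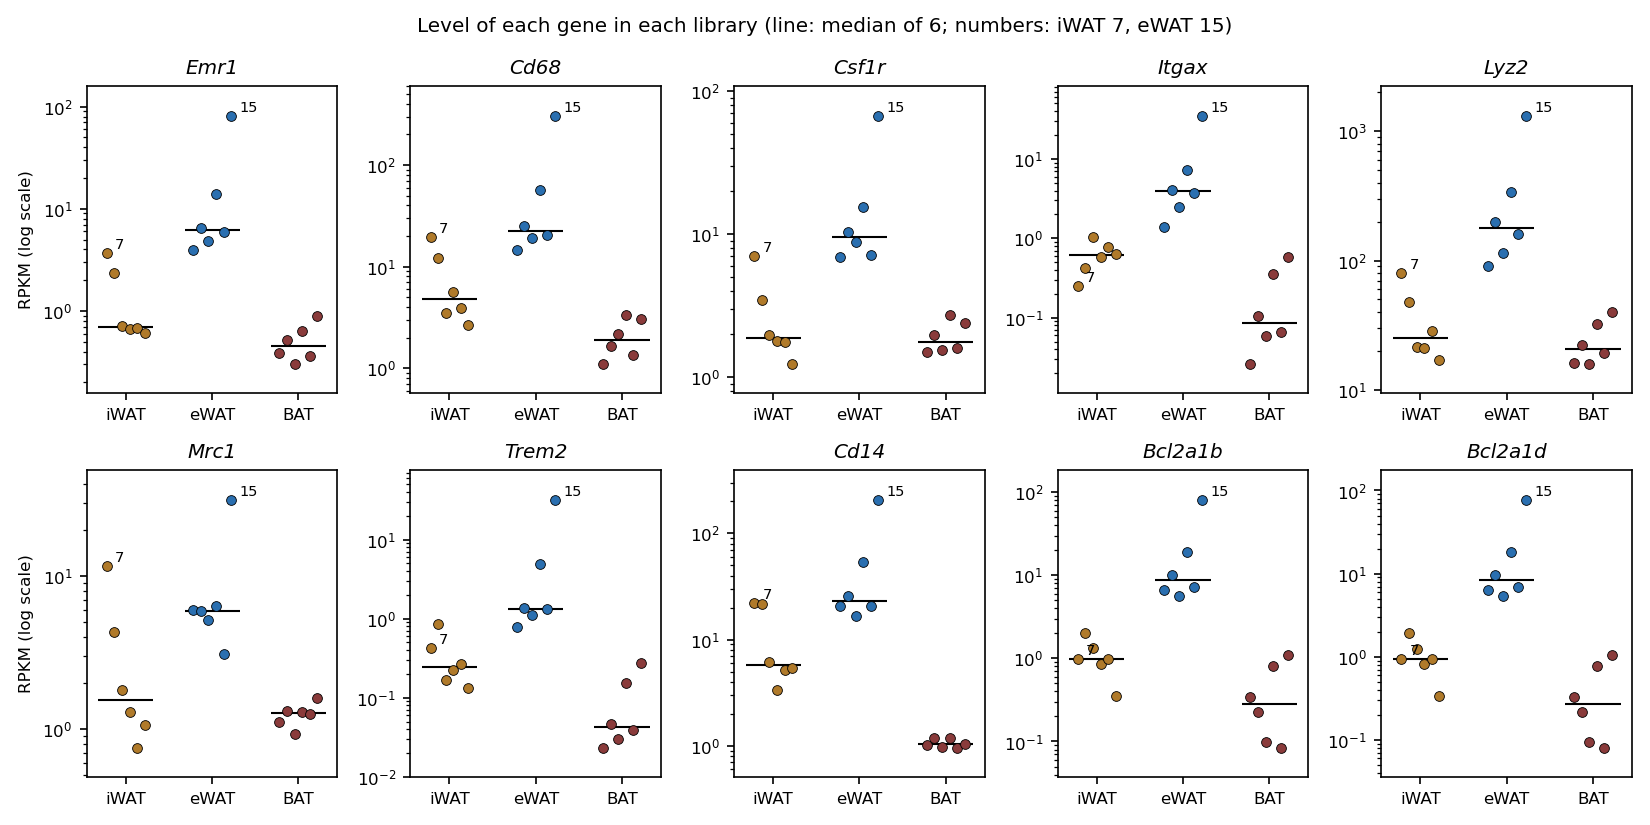
RPKM on a log axis for each of the 10 genes in the 6 libraries of each depot, with 1 point per library and a line at the median of 6 (numbers mark iWAT 7 and eWAT 15). eWAT 15 is the highest eWAT point in every panel, at 81.5 RPKM for Emr1 and 1319.7 RPKM for Lyz2, and Cd14 is the only panel in which all 6 iWAT points lie above all 6 BAT points.

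The Bcl2a1 genes need their sequence and position to be read correctly. The files place Bcl2a1b at chr9:88618114-88626644 and Bcl2a1d at chr9:88618126-88626688, both on the minus strand of mm9 with 2 exons each, so both names cover the same stretch of the genome. GENCODE M1, on the same assembly, has Bcl2a1d there, at chr9:88618126-88626708, but puts Bcl2a1b at chr9:89094047-89102665 on the plus strand, 467403 bases away. No row of the files carries a Bcl2a1 name at that second place. Bcl2a1a lies at chr9:88851738-88857254 on the plus strand in both sources. Bcl2a1c, a shorter relative, lies at chr9:114239253-114239696 on the plus strand. The first 60 coding bases of the 3 near-identical copies, read from the GENCODE M1 transcripts, show how little separates them. Capitals mark the 6 positions, counted from the A of the start codon, at which the copies differ within this stretch.
Bcl2a1a: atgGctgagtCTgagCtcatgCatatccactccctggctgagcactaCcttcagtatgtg
Bcl2a1b: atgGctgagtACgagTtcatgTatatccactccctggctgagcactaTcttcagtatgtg
Bcl2a1d: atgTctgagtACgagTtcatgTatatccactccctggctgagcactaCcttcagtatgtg

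Over the whole coding sequence of 519 bases, 12 positions differed among these 3 copies. Bcl2a1b and Bcl2a1d had 513 identical bases, Bcl2a1a and Bcl2a1d had 512, and Bcl2a1a and Bcl2a1b had 508. Of all windows of 50 bases in the Bcl2a1d transcript, 84.0% occurred unchanged in Bcl2a1a or Bcl2a1b, and of all windows of 100 bases 58.2% did. A read of such a window cannot be assigned to 1 copy by its sequence. How reads that match several places were counted is not given in the sources used here.

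The rows of Bcl2a1b and Bcl2a1d gave almost the same counts. In 15 of 18 libraries both rows had the same number of reads, and the largest difference was 6 reads, in eWAT 15 (2025 on Bcl2a1b and 2019 on Bcl2a1d). In iWAT, Bcl2a1b had 17 reads in library 7, 39 in 11, 33 in 12, 16 in 13, 24 in 14 and 7 in 15. In BAT it had 9 reads in library 6, 6 in 7, 2 in 8, 19 in 11, 2 in 12 and 25 in 13. In eWAT it had 170 reads in library 7, 264 in 8, 123 in 11, 441 in 13, 147 in 14 and 2025 in 15. All 6 eWAT libraries lay above all iWAT and BAT libraries, which describes the choice of the gene for its eWAT level. In RPKM, all 6 eWAT libraries lay above all 6 iWAT libraries for 30.4% of the symbols tested, and above all 6 BAT libraries for 50.3%.

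**Figure D2:**
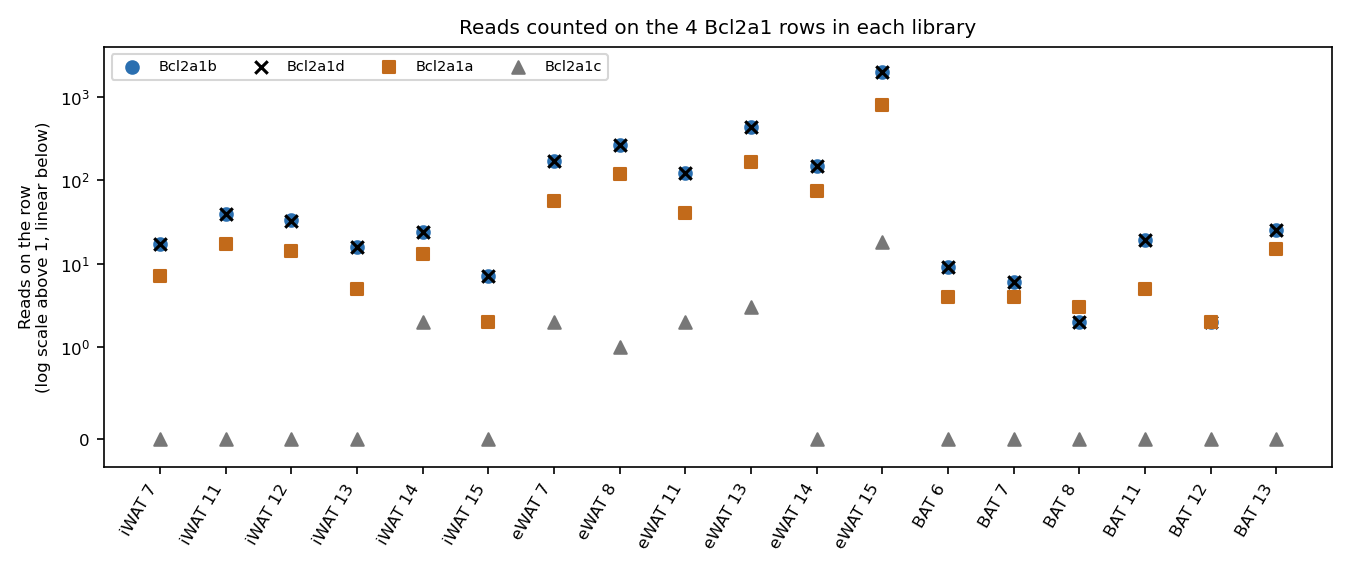
Reads counted on the rows of Bcl2a1b, Bcl2a1d, Bcl2a1a and Bcl2a1c in each of the 18 libraries (log axis above 1 read, linear below). The circles of Bcl2a1b and the crosses of Bcl2a1d lie on each other in every library, Bcl2a1a lies below them in every library except BAT 8 and BAT 12, and Bcl2a1c has 18 reads in eWAT 15 and at most 3 elsewhere.

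The row named Bcl2a1b lies where GENCODE M1 has Bcl2a1d, so its values are not those of the Bcl2a1b place in GENCODE M1. Its level had a low of 0.354, a median of 0.980 and a high of 1.99 RPKM in iWAT. It was 5.56, 8.69 and 80.9 RPKM in eWAT, and 0.0843, 0.285 and 1.104 RPKM in BAT, in the same order. The fitted log2 difference of the Bcl2a1b row was 3.90 for eWAT against iWAT and 4.92 for eWAT against BAT, values that describe the choice of the gene. Without eWAT 15, the mean in eWAT was 9.73 ± 5.52 RPKM (SD, n = 5). Between iWAT and BAT, which played no part in the choice, the log2 difference was 1.04 ± 0.53 (SE) and did not pass the test (edgeR adjusted p = 0.0954). BAT 11 and BAT 13 reached the iWAT levels, whereas BAT 8 and BAT 12 had 2 reads each.

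Bcl2a1a, the copy with a place of its own in the files, had 2 to 17 reads in iWAT, 40 to 811 in eWAT and 2 to 15 in BAT. Its share of the reads on Bcl2a1a and Bcl2a1d together ran from 22.2% to 35.1% over the iWAT libraries and from 24.5% to 33.8% over the eWAT libraries. In BAT this share was lowest at 20.8%, in BAT 11, and highest in BAT 8, where 3 reads fell on Bcl2a1a and 2 on Bcl2a1d. Bcl2a1c had 18 reads in eWAT 15, 0 to 3 in the other eWAT libraries and 0 to 2 in iWAT. It had 0 reads in all 6 BAT libraries, and a count of 0 allows up to 3 reads. No molecular identifiers were used, so that limit is one of counting error alone.

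Emr1 encodes F4/80, the adhesion receptor by which mouse macrophages are usually stained (chr17:57498109-57622952, plus strand). Its level had a low of 0.615, a median of 0.699 and a high of 3.67 RPKM in iWAT. It was 3.98, 6.17 and 81.5 RPKM in eWAT and 0.305, 0.458 and 0.888 RPKM in BAT. Within iWAT, libraries 7 and 11 were at 3.67 and 2.35 RPKM and the other 4 at most at 0.719. All eWAT libraries lay above all iWAT libraries in RPKM, but this depended on row length (5279 bp merged, 3245 bp in eWAT). In reads, iWAT 7 had 444 on Emr1 of a total of 22929576, and eWAT 7 had 437 of 33877564. The log2 difference of eWAT against iWAT was 3.33 ± 0.75 (SE; edgeR adjusted p = 0.00122), and without eWAT 15 it was 1.84 ± 0.47 (edgeR adjusted p = 0.00344).

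Csf1r encodes the receptor for the growth factors that keep macrophages alive (chr18:61265226-61291803, plus strand). Its level was 1.25 (lowest), 1.89 (median) and 7.004 (highest) RPKM in iWAT. It was 6.95, 9.58 and 67.3 RPKM in eWAT and 1.51, 1.78 and 2.71 RPKM in BAT. The iWAT and BAT ranges overlapped, and iWAT 7 reached into the eWAT range, above the lowest eWAT library. Csf1r was higher in eWAT than in iWAT by 2.32 ± 0.56 (log2 ± SE; edgeR adjusted p = 0.00192), and by 1.32 ± 0.36 without eWAT 15 (edgeR adjusted p = 0.00503). For iWAT against BAT the value was 0.32 ± 0.36 (edgeR adjusted p = 0.452).

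Itgax encodes CD11c, an integrin of dendritic cells and of macrophages that accumulate in obese fat (chr7:135273061-135294171, plus strand). It was 0.248, 0.609 and 1.03 RPKM (lowest, median, highest) in iWAT. In eWAT it was 1.37, 3.91 and 35.0 RPKM, and in BAT it was 0.0264, 0.0862 and 0.576 RPKM. All eWAT libraries lay above all iWAT libraries. iWAT 7, the highest iWAT library for 6 of the 10 genes, was the lowest for Itgax. Across the 6 iWAT libraries Pearson's r between Cd68 and Itgax was -0.89 on log2(RPKM + 0.1), the lowest of the 36 gene pairs, in which Bcl2a1b stood for both Bcl2a1 rows. The median over those pairs was 0.79 in iWAT, 0.84 in BAT and 0.98 in eWAT, and 0.92 in eWAT without library 15. These correlations rest on 6 or 5 libraries each and are descriptions of libraries that also differ in depth and composition. Itgax was higher in eWAT than in iWAT by 3.47 ± 0.75 (log2 ± SE; edgeR adjusted p = 0.00084), and by 2.20 ± 0.52 without eWAT 15 (edgeR adjusted p = 0.0019).

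Cd68 encodes a glycoprotein of the lysosome that phagocytes make in quantity (chr11:69477715-69479655, minus strand). It was 2.64, 4.74 and 19.6 RPKM (lowest, median, highest) in iWAT, 14.5, 22.6 and 305.8 RPKM in eWAT and 1.11, 1.90 and 3.36 RPKM in BAT. iWAT 7, at 19.6 RPKM, lay above eWAT 7 (14.5) and eWAT 11 (19.0), and the other 4 eWAT libraries lay above all of iWAT. Cd68 was higher in eWAT than in iWAT by 2.81 ± 0.74 (log2 ± SE; edgeR adjusted p = 0.00386), and by 1.34 ± 0.47 without eWAT 15 (edgeR adjusted p = 0.0252).

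Lyz2 encodes lysozyme M, an antibacterial enzyme of macrophages and granulocytes (chr10:116714390-116719377, minus strand), and had the highest mean RPKM of the 10 genes in each depot. It was 16.9, 25.1 and 80.2 RPKM (lowest, median, highest) in iWAT, 90.5, 179.8 and 1319.7 RPKM in eWAT and 15.9, 20.7 and 40.0 RPKM in BAT. All eWAT libraries lay above all iWAT libraries, while iWAT and BAT overlapped. The log2 difference of eWAT against iWAT was 2.94 ± 0.61 (SE; edgeR adjusted p = 0.000593), and 1.88 ± 0.40 without eWAT 15 (edgeR adjusted p = 0.000859). For iWAT against BAT it was 0.34 ± 0.37 (edgeR adjusted p = 0.438).

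Mrc1 encodes the mannose receptor CD206, a scavenger receptor of tissue-resident macrophages (chr2:14151041-14253684, plus strand). It was 0.759, 1.56 and 11.6 RPKM (lowest, median, highest) in iWAT, 3.09, 5.94 and 31.5 RPKM in eWAT and 0.926, 1.28 and 1.61 RPKM in BAT. The highest iWAT value, 11.6 RPKM in iWAT 7, lay above 5 of the 6 eWAT libraries. Mrc1 was the member that did not pass the test between eWAT and iWAT, with a log2 difference of 1.05 ± 0.63 (edgeR adjusted p = 0.17). Without iWAT 7 the difference was 1.99 and passed (edgeR adjusted p = 0.00632), and without eWAT 15 it was 0.17 ± 0.53 (edgeR adjusted p = 0.81). Over the 29 alternatives the adjusted p of this difference ran from 0.00632 to 0.992.

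Trem2 encodes a lipid receptor of macrophages that handle cell debris and fat (chr17:48485726-48493472, plus strand). On the rows used it had the lowest mean RPKM of the 10 genes in each depot, but this rank depends on long rows. The merged row was 4946 bp long and the eWAT row 4784 bp, with a mean of 6.89 RPKM in eWAT. The RefSeq transcript, 1088 bp long, had a mean of 27.8 RPKM in eWAT. Its reads in eWAT 15 were 4590, beside 4995 on the row used. The levels below are those of the rows used. Trem2 was 0.133, 0.247 and 0.845 RPKM (lowest, median, highest) in iWAT, 0.784, 1.34 and 31.8 RPKM in eWAT and 0.0234, 0.0431 and 0.273 RPKM in BAT. In BAT this was 4 to 40 reads. eWAT 15 had the largest excess of the 10 genes over its depot here, and eWAT 7 lay below iWAT 11. Trem2 was higher in eWAT than in iWAT by 3.92 ± 0.91 (log2 ± SE; edgeR adjusted p = 0.00159), and by 2.02 ± 0.58 without eWAT 15 (edgeR adjusted p = 0.00721).

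Cd14 encodes the co-receptor that hands lipopolysaccharide to Toll-like receptor 4 (chr18:36883819-36886392, minus strand). It was 3.33, 5.78 and 21.9 RPKM (lowest, median, highest) in iWAT, 16.8, 23.2 and 207 RPKM in eWAT and 0.960, 1.03 and 1.19 RPKM in BAT. Cd14 was the member with the widest gap between iWAT and BAT, at a log2 difference of 3.07 ± 0.47 (edgeR adjusted p = 5.04e-05). The gap between iWAT and eWAT was less sure, since iWAT 7 and 11, at 21.9 and 21.5 RPKM, lay above 3 of the 6 eWAT libraries. This order also depended on row length (2483 bp merged, 1574 bp in eWAT). eWAT 8 lay above iWAT 7 in RPKM, but it had 1372 reads of 34048018, beside 1245 of 22929576 in iWAT 7. The log2 difference of eWAT against iWAT was 2.01 ± 0.61 (edgeR adjusted p = 0.0105). Without eWAT 15 it was 0.93 ± 0.43 and did not pass (edgeR adjusted p = 0.0806, in a range of 0.00244 to 0.297 over 29 alternatives).

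Across the members, 7 of the 8 tested genes were higher in eWAT than in iWAT, where 29.1% of the 18383 symbols tested were higher and 23.0% lower. Their median log2 difference was 2.87, beside -0.02 over all symbols. Without eWAT 15, 6 of 8 were higher, beside 27.9% of 18236 symbols higher and 23.2% lower, and the median was 1.59. With reads compared without regard to row length, 7 of 8 were higher, beside 12.3% of symbols higher and 13.4% lower. Among the 5733 rows that both kinds of file define alike, 6.37% were higher and 6.49% lower, but none of the 8 genes has such a row. Leaving out both eWAT 15 and the row length, a setting chosen after the data had been seen, gave 6 of 8, beside 9.92% of symbols higher and 12.8% lower. Without the scaling factors between libraries (TMM), the count of members was again 7, beside 47.2% of symbols higher and 5.15% lower. The median over all symbols then rose to 0.40, and 90.2% of all calls were higher in eWAT, against 55.9% with TMM. In RPKM, all 6 eWAT libraries lay above all 6 iWAT libraries for 3 of these 8 genes (Emr1, Itgax and Lyz2), beside 30.4% of the symbols tested. For Emr1 this depended on row length, since iWAT 7 had more of its reads on Emr1 than eWAT 7.

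**Figure D3:**
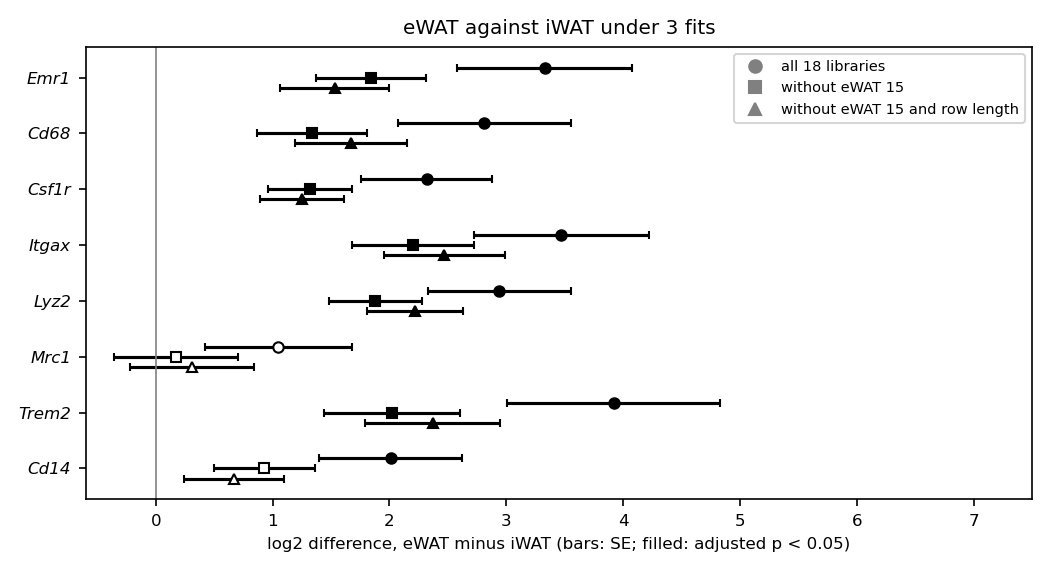
Log2 difference of eWAT against iWAT for the 8 tested genes, with SE bars, in the fit of all 18 libraries (circles), without eWAT 15 (squares) and without eWAT 15 and row length (triangles). Filled symbols passed an edgeR adjusted p of 0.05. Each of the 8 values falls when eWAT 15 is left out, Trem2 from 3.92 to 2.02, the Mrc1 symbols are open in all 3 fits, and those of Cd14 in the 2 fits without eWAT 15.

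Against BAT, 8 of 8 tested genes were higher in eWAT, where 40.9% of symbols were higher and 33.0% lower. The log2 difference ran from 2.27 ± 0.65 (Mrc1; edgeR adjusted p = 0.00433) to 5.54 ± 1.02 (Trem2; edgeR adjusted p = 8.23e-05), with a median of 4.51 beside 0.12 over all symbols. Cd14 was 5.08 ± 0.72 higher, Itgax 4.85 ± 0.82 and Emr1 4.56 ± 0.80. Without eWAT 15 all 8 passed again, beside 40.2% of symbols higher and 33.9% lower, with differences from 1.39 ± 0.53 (Mrc1) to 3.99 ± 0.49 (Cd14) and a median of 3.03. Trem2 was then 3.65 ± 0.64 higher and Csf1r 1.63 ± 0.36, against 2.63 ± 0.56 with that library. Without row length 8 of 8 passed, beside 35.6% of symbols higher and 34.7% lower. Without row length and eWAT 15 it was again 8 of 8, beside 34.5% higher and 35.6% lower. Among rows defined alike, 35.3% were higher and 32.6% lower. In RPKM, all 6 eWAT libraries lay above all 6 BAT libraries for 8 of these 8 genes, beside 50.3% of the symbols tested. Bcl2a1b and Bcl2a1d were left out of these counts, since their eWAT level chose them. Without TMM 8 members were called, beside 63.1% of symbols higher and 17.1% lower. The median over all symbols was then 0.81, and 78.7% of all calls were higher in eWAT (55.3% with TMM). Floating adipocytes were compared with whole tissue here, so depot and preparation cannot be told apart.

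Between iWAT and BAT, 5 of 10 genes were higher in iWAT, where 34.0% of the 19733 rows were higher and 33.6% lower. Bcl2a1b and Bcl2a1d enter all counts of 10 here as 2 genes, although their rows had equal reads in 15 of 18 libraries and are nearly 1 measurement. The 5 were Cd14, Cd68 (1.67 ± 0.49, log2 ± SE; edgeR adjusted p = 0.0076), Trem2 (1.63 ± 0.60; edgeR adjusted p = 0.0272), Itgax (1.39 ± 0.57; edgeR adjusted p = 0.0422) and Emr1 (1.24 ± 0.48; edgeR adjusted p = 0.0331). The median over the 10 genes was 1.24, beside 0.01 over all rows. Mrc1 had a log2 difference of 1.23 ± 0.57 (edgeR adjusted p = 0.0717). In RPKM, Cd14 was the 1 gene of 10 whose libraries did not overlap between these depots, beside 31.6% of symbols. Cd14 passed in all 20 alternatives, Cd68 in 19 of 20, Trem2 in 12 of 19, and Emr1 and Itgax in 9 of 19 each. The count of 5 was 3 without iWAT 11, 2 without each of BAT 6, BAT 7, BAT 8 and BAT 12, and 7 without iWAT 15 or BAT 13. The shares of all rows in these fits are not given here, so the counts describe the members alone. Emr1 lost its call without iWAT 7 (0.71; edgeR adjusted p = 0.119), iWAT 11 or any BAT library other than BAT 13. Trem2 lost its call without iWAT 11 (1.14; edgeR adjusted p = 0.0829), BAT 6, BAT 7, BAT 8 or BAT 12. Itgax lost its call without any of iWAT 12 to 15 or those same 4 BAT libraries, with adjusted p from 0.056 to 0.0912 (edgeR). Mrc1 passed without iWAT 13, iWAT 14 or iWAT 15, with adjusted p from 0.0275 to 0.0462 (edgeR). Bcl2a1d passed without iWAT 15 (1.22; edgeR adjusted p = 0.0493) or BAT 13 (1.49; edgeR adjusted p = 0.0225), as did Bcl2a1b. Without TMM, 8 of the 10 passed, beside 46.2% of all rows higher and 24% lower. The median over all rows was then 0.27, and 65.8% of all calls were higher in iWAT, against 50.3% with TMM. BAT also held muscle RNA in uneven amounts: the summed RPKM of 5 skeletal muscle genes was 0.550 to 1340.1 in BAT and 4.97 to 73.3 in iWAT, and its part in these differences was not tested.

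**Figure D4:**
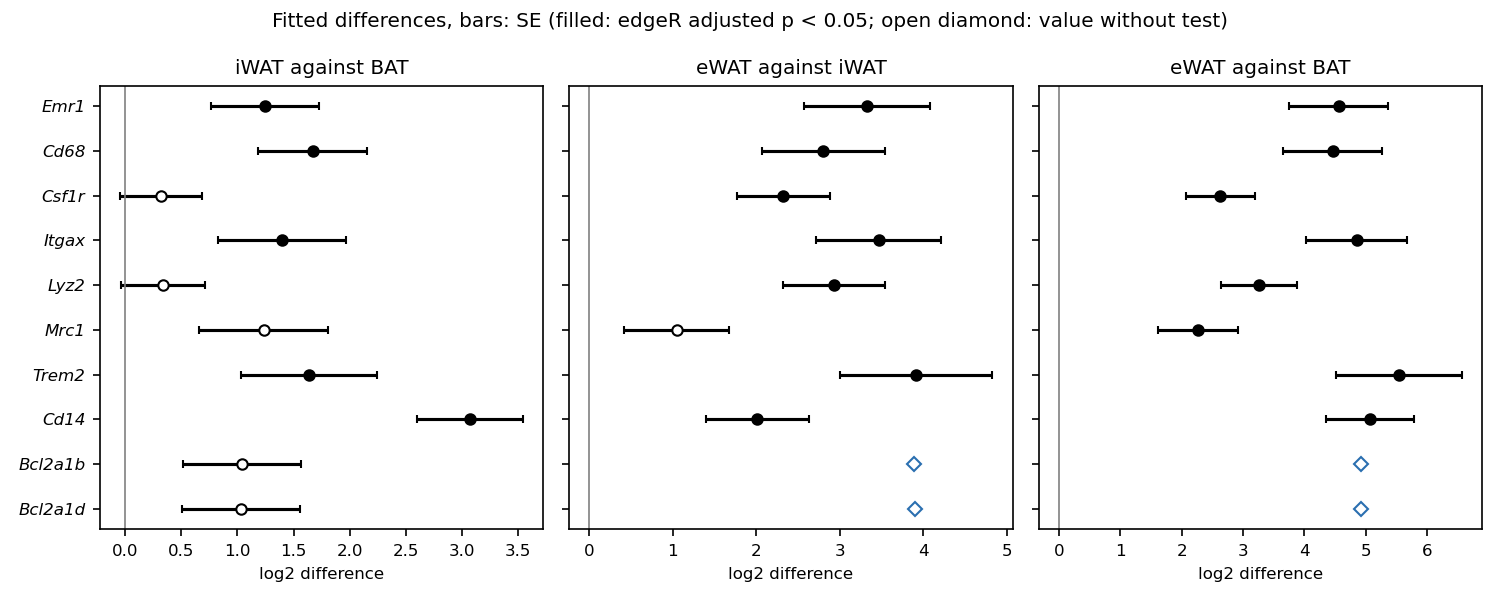
Fitted log2 differences of the 10 genes for iWAT against BAT, eWAT against iWAT and eWAT against BAT, with SE bars. Filled circles passed an edgeR adjusted p of 0.05 and open diamonds are the untested eWAT values of Bcl2a1b and Bcl2a1d. All 8 tested circles are filled for eWAT against BAT, 7 of 8 for eWAT against iWAT and 5 of 10 for iWAT against BAT.

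Both ligands of the Csf1 receptor were higher in iWAT and in eWAT than in BAT, and neither passed the test between eWAT and iWAT. Csf1 had a low of 5.92, a median of 11.2 and a high of 24.3 RPKM in iWAT, 7.44, 9.26 and 19.4 RPKM in eWAT and 0.941, 1.18 and 1.55 RPKM in BAT. Il34, the second ligand, was 3.53, 5.42 and 5.88 RPKM in iWAT, 4.51, 5.56 and 7.59 RPKM in eWAT and 0.964, 1.14 and 1.55 RPKM in BAT. For both, iWAT and eWAT overlapped and lay wholly above BAT. Between eWAT and iWAT the log2 difference was -0.54 for Csf1 (edgeR adjusted p = 0.128) and -0.22 for Il34 (edgeR adjusted p = 0.193). Between iWAT and BAT it was 3.06 (edgeR adjusted p = 6.58e-07) and 1.88 (edgeR adjusted p = 2.61e-08). Their summed level in eWAT 15, 11.96 RPKM, was the lowest of the eWAT libraries, where the highest was 25.1 RPKM.

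Tyrobp (DAP12), the adaptor through which Trem2 signals, was 1.63, 2.84 and 6.13 RPKM (lowest, median, highest) in iWAT, 8.49, 16.2 and 208 RPKM in eWAT and 1.45, 1.98 and 3.32 RPKM in BAT. It was higher in eWAT than in iWAT by 3.36 on the log2 scale (edgeR adjusted p = 0.000702), and iWAT and BAT did not pass the test (0.44; edgeR adjusted p = 0.243). Tlr4, the signalling receptor that Cd14 serves, was 3.39 to 7.402 RPKM in iWAT, 4.90 to 8.20 in eWAT and 0.930 to 1.51 in BAT. It was higher in iWAT than in BAT by 2.03 (edgeR adjusted p = 3.12e-07), while eWAT and iWAT did not pass the test (-0.31; edgeR adjusted p = 0.146). Ly96 (MD-2), which binds lipopolysaccharide on Tlr4, passed in no comparison. Its level was 1.65 to 2.37 RPKM in iWAT, 1.86 to 6.04 in eWAT and 0.658 to 1.57 in BAT.

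Other macrophage genes were counted in lists written with earlier results of these data known. Of 24 core myeloid genes tested, 20 were higher in eWAT than in iWAT, with a median log2 difference of 2.63, and 18 were higher without eWAT 15, with a median of 1.59. The most abundant was Ctss, the lysosomal protease cathepsin S, at 3.22 to 18.1 RPKM in iWAT, 21.5 to 558 in eWAT and 1.69 to 6.84 in BAT. It was followed by Tyrobp, by Laptm5, a lysosomal membrane protein of blood cells (3.14 higher in eWAT than in iWAT; edgeR adjusted p = 0.0011), and by Fcer1g, the signalling chain of Fc receptors (2.58; edgeR adjusted p = 0.00313). Between iWAT and BAT, 7 of 23 core myeloid genes were higher and 2 lower. Against BAT, 20 of 24 were higher in eWAT and 1 was lower, and without eWAT 15 these were 17 and 1. Over all rows tested, 29.1% were higher and 23.0% lower in eWAT than in iWAT (27.9% and 23.2% without eWAT 15). Higher in eWAT than in BAT were 40.9% (40.2% without eWAT 15), and higher in iWAT than in BAT 34.0%, with 33.6% lower.

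Of 17 genes of resident and scavenger macrophages, 6 were higher in eWAT than in iWAT and 11 did not pass, with a median of 1.05. Without eWAT 15, 3 were higher and 1 was lower, with a median of 0.15. The complement gene C1qb was 16.3 to 263 RPKM in eWAT and 4.30 to 31.9 in iWAT (2.12 higher; edgeR adjusted p = 0.0141), and C1qc was 2.57 higher (edgeR adjusted p = 0.00434). C1qa missed the threshold (1.48; edgeR adjusted p = 0.0625). Retnla, a gene of alternatively activated macrophages, was 72.5 to 182 RPKM in eWAT, 7.56 to 70.4 in iWAT and 3.01 to 9.81 in BAT, with the eWAT libraries wholly above the others. It was higher in eWAT than in iWAT by 1.59 (edgeR adjusted p = 0.00337). Against BAT, 11 of 17 were higher in eWAT, and 9 of 17 without eWAT 15. Between iWAT and BAT, 6 of 14 were higher in iWAT and 1 was lower. Over all rows, 29.1% were higher in eWAT than in iWAT, 40.9% in eWAT than in BAT and 34.0% in iWAT than in BAT. Without eWAT 15 the eWAT shares were 27.9% against iWAT and 40.2% against BAT.

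Of 14 genes of lipid-associated macrophages, 10 were higher and 1 was lower in eWAT than in iWAT, with a median of 2.04, and 8 were higher and 1 lower without eWAT 15, with a median of 0.98. The most abundant of them are also adipocyte genes. Apoe, an apolipoprotein, was the 1 that was lower (-0.63; edgeR adjusted p = 0.00332). Cd36, a fatty acid transporter, was 1.04 higher (edgeR adjusted p = 1.62e-06), and Plin2, which coats lipid droplets, was 0.84 higher (edgeR adjusted p = 0.0271). The protease gene Ctsb did not pass (0.25; edgeR adjusted p = 0.393). Against BAT, 13 of 14 were higher in eWAT, and 13 of 14 with 1 lower without eWAT 15. Between iWAT and BAT, 10 of 14 were higher and 2 lower in iWAT. The shares of all rows that were higher were 29.1% (eWAT against iWAT), 40.9% (eWAT against BAT) and 34.0% (iWAT against BAT). Leaving out eWAT 15 gave 27.9% against iWAT and 40.2% against BAT.

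Of 18 genes of inflammation and the response to lipopolysaccharide, 8 were higher and 3 lower in eWAT than in iWAT, and 7 and 4 without eWAT 15. Over all symbols 29.1% were higher and 23.0% lower, or 27.9% and 23.2% without eWAT 15. Ccl2, the monocyte attractant, was lower in eWAT (-0.94; edgeR adjusted p = 0.0311), and Lbp, the lipopolysaccharide binding protein, was higher (1.34; edgeR adjusted p = 2.58e-05). Both floating adipocyte preparations stood far above BAT for this list. Of 17 genes tested, 14 were higher in iWAT than in BAT and 1 was lower, with a median of 3.45, and 16 of 18 were higher in eWAT, with a median of 4.91 (15 of 18 without eWAT 15). Over all rows, 34.0% were higher in iWAT than in BAT and 40.9% in eWAT than in BAT (40.2% without eWAT 15). Ccl2 was 48.1 to 249 RPKM in iWAT, 55.0 to 140 in eWAT and 0.198 to 0.711 in BAT. Cxcl2, a neutrophil attractant, was 10.9 to 61.8 RPKM in iWAT, 26.2 to 233 in eWAT and 0.0141 to 0.253 in BAT. Nfkbia, an inhibitor that NF-kB itself induces, was 101 to 198 RPKM in iWAT, 106 to 247 in eWAT and 7.19 to 22.4 in BAT. Digestion with collagenase was part of both white fat preparations and not of BAT, and its part in these differences cannot be told apart from that of the depot.

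Of 16 other genes of the Bcl2 family tested between eWAT and iWAT, 4 were higher and 1 was lower, with a median of 0.04, and the counts were again 4 and 1 without eWAT 15. Mcl1, a pro-survival member, was 87.6 to 133 RPKM in iWAT, 94.4 to 175 in eWAT and 17.0 to 32.5 in BAT. Its log2 difference was 2.14 for iWAT against BAT (edgeR adjusted p = 9.42e-09) and -0.34 for eWAT against iWAT (edgeR adjusted p = 0.0762). Bcl2l2, also pro-survival, was 0.53 higher in iWAT than in BAT (edgeR adjusted p = 0.000132). Bad, which promotes cell death, passed in no comparison. In all, 9 of 16 were higher in eWAT than in BAT. Of 17 tested between iWAT and BAT, 8 were higher, and the 9 others include Bcl2a1b and Bcl2a1d. Over all rows, 29.1% were higher in eWAT than in iWAT (27.9% without eWAT 15). The shares higher than in BAT were 40.9% in eWAT and 34.0% in iWAT.

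Markers of other cells were summed per library beside the 10 genes, to show which moved with eWAT 15. The 10 genes, with both Bcl2a1 rows counted, summed to 2238 RPKM in eWAT 15 and to 158 to 533 in the other 5 eWAT libraries. The core myeloid list summed to 1506 RPKM against at most 320.2, with 23 of its 24 measured genes highest in eWAT 15. The resident and scavenger list summed to 873 RPKM against at most 278, and the lipid-associated list to 5878 RPKM against at most 3808. The lymphocyte list summed to 33.7 RPKM against at most 6.19, of which 31.5 RPKM came from Il7r, a cytokine receptor of T cells, while 6 of its 12 genes were highest in eWAT 15. The neutrophil list, with Ly6g at 0 reads in all iWAT and eWAT libraries, summed to 13.2 RPKM against at most 12.5. The dendritic list summed to 5.6004 RPKM against at most 6.44 and the mast cell list to 1.03 against at most 1.11.

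The endothelial list was lowest in eWAT 15, at 104 RPKM against 105 to 266 in the others. The mesothelial list was also lowest there, at 18.01 RPKM, and the fibroblast list was highest, at 178 RPKM against at most 127. The adipocyte list was lowest in eWAT 15, at 8382 RPKM against 11777 to 14872. Epididymis genes, which mark the neighbouring organ, summed to 69.1 RPKM in eWAT 15, to 80.5 in eWAT 14, to 3.95 in eWAT 13 and to at most 0.0568 in the other 3. eWAT 14, the highest for these genes, had an Emr1 level of 5.90 RPKM, within the range of the other eWAT libraries. eWAT 15 and eWAT 13, next in order for the epididymis genes, held the highest and second highest levels of all 10 genes. The part of the other lists in the level of the 10 genes was not tested.

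**Figure D5:**
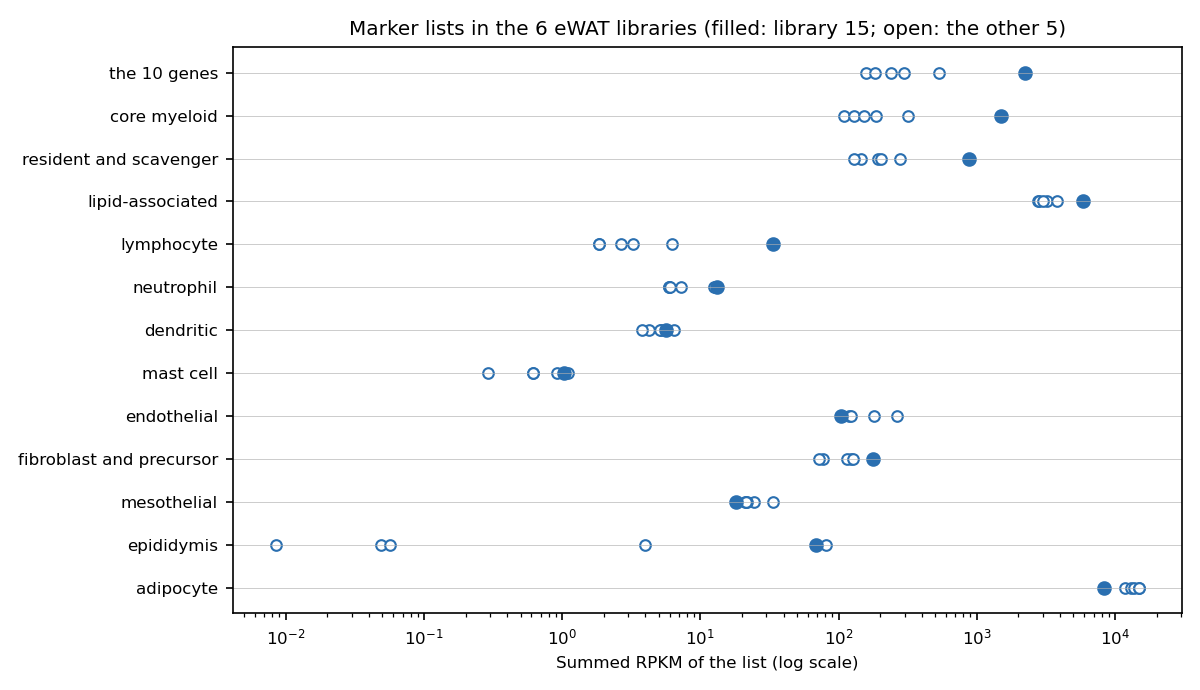
Summed RPKM of 13 gene lists in each of the 6 eWAT libraries on a log axis, with library 15 filled and the other 5 open. The filled point lies far to the right for the 10 genes (2238 RPKM) and for the core myeloid (1506 RPKM) and resident and scavenger (873 RPKM) lists. It does so too for the lymphocyte list (33.7 RPKM), mostly through Il7r. It is also the highest for the lipid-associated (5878 RPKM), fibroblast (178 RPKM) and neutrophil (13.2 RPKM) lists. It is the lowest for the adipocyte, mesothelial and endothelial lists, by little for the last (104 RPKM beside 105 in eWAT 7).

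The genes whose levels were most like Bcl2a1 over the 18 libraries are listed here as a description. The ranking reuses the eWAT values for which Bcl2a1b and Bcl2a1d were chosen, so genes high in eWAT rank high over the 18 libraries. Among 13871 symbols, the highest Pearson correlations of log2(RPKM + 0.1) with the mean of Bcl2a1b and Bcl2a1d were those of Capg (0.975), Itgb2 (0.975), Adam8 (0.974), Dpep2 (0.970), Ptplad2 (0.969), Tgfb1 (0.969), S100a4 (0.968) and Ctss (0.968). Itgb2 encodes the common chain of the leukocyte integrins, Capg an actin-capping protein of macrophages. With each library taken as its deviation from its depot mean, Lat2 (0.909), AK150131 (0.907), Mpeg1 (0.894), Adam8 (0.892), Itgb2 (0.888), Trem2 (0.886), Myo1f (0.884) and Cd300lb (0.881) came first, and Mpeg1 encodes a pore-forming protein of macrophages. Among the members Trem2 had the highest value by this measure, followed by Lyz2 (0.831), Emr1 (0.809), Itgax (0.806), Cd68 (0.788), Csf1r (0.780), Cd14 (0.701) and Mrc1 (0.582). All points share the same 18 libraries, and eWAT 15 is the extreme one among them. Over the 5 eWAT libraries without it the order was another. Cd14 came first among the members (0.988), followed by Emr1 (0.949), Cd68 (0.946), Lyz2 (0.931), Trem2 (0.921), Csf1r (0.894), Itgax (0.832) and Mrc1 (0.421).

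The stretch upstream of each gene was searched for GAGGAAG on both strands, the core of the motif of PU.1, a transcription factor of the myeloid lineage. The motif was chosen by hand with the results known, and no other was tried. It occurred within 250 bases upstream of the start in 10.6% of 32851 promoters (RefSeq, GRCm38.p6). Of the 10 genes, 7 have an entry, and 4 of these 7 held the motif (Mrc1, Trem2, Bcl2a1b and Bcl2a1d), whereas Cd68, Itgax and Lyz2 did not. The bases around the match farthest from the start are shown for the copies of Bcl2a1, which are nearly alike here too, and for Trem2 and Mrc1. They read 5′ to 3′ on the strand of the gene, with each match, or its reverse complement, in capitals. The windows of Bcl2a1a and Bcl2a1b hold 2 matches that overlap by 1 base, and Mrc1 has a second match outside the window shown. A match describes these letters only.
Bcl2a1b, chr9:89199093-89199152 (+): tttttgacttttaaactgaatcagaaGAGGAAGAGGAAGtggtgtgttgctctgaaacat
Bcl2a1a, chr9:88956784-88956843 (+): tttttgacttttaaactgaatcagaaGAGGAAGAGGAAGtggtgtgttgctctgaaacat
Bcl2a1d, chr9:88731921-88731980 (-): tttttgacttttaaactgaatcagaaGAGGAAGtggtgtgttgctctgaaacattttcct
Trem2, chr17:48346334-48346393 (+): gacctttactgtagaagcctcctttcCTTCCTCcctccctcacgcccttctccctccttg
Mrc1, chr2:14229220-14229279 (+): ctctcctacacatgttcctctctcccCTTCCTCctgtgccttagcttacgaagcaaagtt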

How the data were processed

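RNA was sequenced from 18 samples, 6 each of iWAT adipocytes, eWAT adipocytes and BAT. NEBNext Ultra libraries were read on an Illumina HiSeq instrument and mapped to mm9. The paper names the Genomatix Genome Analyzer, and the submitters' processing notes name cutadapt 1.16 and HISAT2 2.1.0. The authors deposited a read count per row (not normalized) and an RPKM per row, which divides the count by row length and by 1 total of reads per library. That total was used as library size.

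The depot named in each title gave the group. iWAT and BAT were compared over the 12 libraries with merged gene rows. Comparisons with eWAT used all 18 libraries by symbol, with the merged row (iWAT, BAT), the most-read transcript (eWAT) and log row length as offset. The fits used edgeR 4.0.16 in R 4.3.3 (quasi-likelihood, TMM, at least 10 reads in at least 6 libraries), with Benjamini-Hochberg adjusted p under 0.05 as threshold, two-sided. SE were derived from the F statistic. The fits were tested on simulated data.

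The members and lists were chosen with earlier results of these data known. Named were the members, all Bcl2a1 copies, Csf1, Il34, Tyrobp, Tlr4, Ly96, at most 4 genes per list by mean RPKM, the 8 symbols most like Bcl2a1, and Adipoq and Ucp1. Of the listed genes 1 has no row, and others were below the read filter. Alternatives were DESeq2 1.42.0, limma 3.58.1 on log2(RPKM + 0.1) or log2(RPKM + 1), no TMM, other filters, other eWAT rows, a replicate block and leaving out each library. Python 3.11.15 served for the summaries. Sequences came from GENCODE M1 and RefSeq.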

Additional observations from a re-analysis of the deposited data

Results flagged for a closer look

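For each gene the highest or lowest library of a depot was set against the other 5 by its gap over the depot's whole range. The eWAT values of Bcl2a1b and Bcl2a1d, which chose those genes, were left out. Of the other 28 gene and depot combinations, 9 passed Dixon's critical value for 6 values at the 95% level. About 1 in 20 would pass by chance if the combinations were independent and the values normal. These combinations are not independent, since the genes share libraries and correlated at a median r of 0.98 in eWAT. In 8 of the 9 the library was eWAT 15. Its RPKM was 81.5 for Emr1 (the other 5 were 3.98 to 14.05), 305.8 for Cd68 (14.5 to 57.0), 67.3 for Csf1r (6.95 to 15.5), 35.0 for Itgax (1.37 to 7.30) and 1319.7 for Lyz2 (90.5 to 337). It was 31.5 for Mrc1 (3.09 to 6.40), 31.8 for Trem2 (0.784 to 4.89) and 206.8 for Cd14 (16.8 to 53.2). The remaining one was Mrc1 in iWAT 7, at 11.6 RPKM beside 0.759 to 4.30 in the other iWAT libraries.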

How the results depend on the processing

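The count of members called between iWAT and BAT was the least stable: 5 of 10 became 8 without TMM, 2 (of 5 tested) with a mean RPKM of at least 1, and 1 when iWAT and BAT were taken from the fit of all 18 libraries. The share of all rows higher in iWAT was 34.0% in the main fit and 46.2% without TMM. It was 35.2% with a mean RPKM of at least 1 and 32.5% in the fit of all 18 libraries. The count of members ranged from 2 to 7 when 1 library was left out, in fits whose shares of all rows are not given here. With a replicate block on the title number the count was 2, beside 29.6% of all rows higher, and Emr1 (1.14, edgeR adjusted p = 0.096), Itgax and Trem2 no longer passed. What a shared number stands for is not stated. Between libraries with the same number, deviations from the depot means correlated at -0.027 to 0.109 for iWAT and BAT and -0.141 to 0.056 for eWAT and BAT. For eWAT and iWAT the correlation was -0.307 to 0.114, and 0 libraries correlated best with their own number. These 4, 4 and 5 pairs are too few to tell whether libraries with the same number share a mouse. With the block 5 of 8 members were called between eWAT and iWAT, beside 4772 of 18383 symbols higher, where Cd68 (1.78, edgeR adjusted p = 0.081) and Cd14 (1.56, edgeR adjusted p = 0.0898) no longer passed, and 8 of 8 against BAT, beside 6810 higher. Without iWAT 7 the iWAT minus BAT difference turned negative for Csf1r (-0.18, with up to 0.49 when other libraries were left out) and Lyz2 (-0.08, up to 0.51), neither of which passed in any of the alternatives. The counts for eWAT ranged from 6 to 8 (against iWAT) and stayed at 8 (against BAT) when 1 library was left out. Of these fits, the share of all symbols higher in eWAT is given only without eWAT 15 (27.9% against iWAT, 40.2% against BAT). With all transcripts summed 7 of 8 passed against BAT, beside 40.6% of symbols higher and 39.5% lower. Of 659 values of single genes under alternatives, 607 kept their direction and side of the threshold, 17 passed only there, 33 no longer passed and 2 changed sign. Over all symbols the calls between eWAT and iWAT depended on the rows: 9570 of 18383 with row length, 4714 without it, 4135 without it and without eWAT 15, 13584 of 19030 with transcripts summed and 737 of the 5733 rows that both kinds of file share, while none of the 8 tested members has a shared row. Between eWAT and BAT 13583 symbols were called, and 2021 higher and 1867 lower among the shared rows. limma on log2(RPKM + 0.1), which uses no TMM, moved the share of calls that were higher to 65.2% (iWAT against BAT), 89.8% (eWAT against iWAT) and 77.9% (eWAT against BAT), and with a pseudocount of 1 to 65.5%, 89.9% and 77.8%. Without eWAT 15 and row length that share was 43.7% between eWAT and iWAT, against 55.9%. The cause of these changes was not tested. Genes with under about 20 reads in a library, such as Trem2 and the Bcl2a1 rows in BAT, are limited by depth.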

Other observations

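At the place where GENCODE M1 has Bcl2a1b, the eWAT files hold a transcript named for the neighbouring gene Mthfs, an enzyme of folate metabolism (chr9:89094217-89110309 in GENCODE M1, mm9). It shares 401 bases with the first exon of Bcl2a1b in GENCODE M1. It had 92 reads in eWAT 7, 140 in 8, 68 in 11, 192 in 13, 91 in 14 and 908 in 15. The RefSeq transcript of Mthfs had 39, 44, 35, 51, 42 and 64 reads in the same libraries. eWAT 15 and eWAT 13 were the highest libraries for both transcripts, and for the Bcl2a1b, Bcl2a1d and Bcl2a1a rows. The transcript was chosen after its values had been seen, and no test was run on it.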
